A study of Mus musculus with 6 samples.

Results

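The LncRNAs described here were the 2633 intergenic LncRNAs whose array probes carry only a number of the array maker. They were the rows of the study's list of measured LncRNAs that were classed as intergenic and whose probe name neither ended with _P1 nor started with CUST. The list held here, a portion of a longer one, had 4313 intergenic rows, of which 1561 others had a probe name ending with _P1 and 119 started with CUST. The array had 59729 probes apart from control spots. The study compared heart, whole blood and plasma of male C57BL/6J mice with heart failure (HF), induced by subcutaneous isoproterenol daily for a week, with those of control mice injected with saline; no genetic change is named for either group. Total RNA of 5 mice was mixed for each condition and tissue, although the extraction methods for blood describe a larger number of animals. Each of the 6 mixtures was hybridised to 1 single-colour array (control heart, HF heart, control whole blood, HF whole blood, control plasma, HF plasma), so no condition had a replicate and no difference below carries a test, an SD or a p value. Whole blood was collected after removal of the eyeballs, and plasma was cleared by centrifugation and passed through a filter that holds back cells.

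LncRNAs are transcripts longer than the usual small RNAs that are not translated into protein. Intergenic LncRNAs lie between protein-coding genes and share no exon with them. Some act in the nucleus on chromatin and transcription, and others act in the cytoplasm on mRNAs or proteins. RNA found in cell-free plasma can come from blood cells, vessels or solid organs, carried in vesicles or in complexes with protein. No function is given here for any of the 2633, because no file at hand pairs their numbers with a transcript, a position or a sequence.

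In this text a level is the log2 of the background-subtracted signal after quantile normalization over the 6 arrays, and a change is the level in HF minus that in the control of the same tissue. An LncRNA was called detected on an array when its spot was flagged as well above background and was no outlier spot. Each member had 1 spot, and none was saturated on any array. The error within an array that the scanner software gave for a change had a median between 0.21 and 0.22 on the log2 scale in the 3 tissues. That error covers the reading of a spot, not the spread between mice. Levels of different probes are not comparable as amounts of RNA, since probes bind with different strength, so levels are compared between arrays for the same LncRNA.

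All 2633 members were flagged on at least 1 heart array and at least 1 blood or plasma array, as were all 4313 intergenic rows, so every row held here passed such a filter on detection. Of all probes, 20953 (35.1%) passed the same filter, and they serve below as a second background, called the filtered probes. The members were detected most often in control heart, with 2591 (98.4%). HF heart had 1931 (73.3%), control whole blood 1669 (63.4%), HF whole blood 1985 (75.4%), control plasma 2137 (81.2%) and HF plasma 1772 (67.3%). The filtered probes had near shares: 98.6%, 76.2%, 63.4%, 74.7%, 81.4% and 65.5% in the same order. Detection on all 6 arrays was seen for 935 members (35.5%, against 35.9% of the filtered probes). A further 261 were detected on every array but HF plasma, 151 on every array but HF heart, and 95 on control heart and HF plasma alone. Because of the filter, the counts of members detected on both heart arrays and no blood array, or on all 4 blood and plasma arrays and no heart array, could only be 0, as they were. The median level of the members was 6.32, 6.07, 6.86, 6.78, 6.89 and 6.68 on the arrays in that order. The signal sat at the lowest value of the array for 255 members in control whole blood and for 290 in HF plasma.

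The arrays came from 2 scans: control whole blood and control plasma were in one, and the other 4 arrays in the other. The hearts can therefore be compared within a scan, whereas in whole blood and plasma the scan and HF cannot be told apart. Across the 2633 members the levels had a Spearman's rho of 0.89 between the 2 heart arrays and of 0.96 between control whole blood and control plasma. HF plasma stood apart, with a rho between 0.14 and 0.49 with the other 5 arrays. These are correlations across LncRNAs, which share an array, its depth of signal and the base composition of probes. The labelled tissues were checked against cell type markers where a probe could be paired with a gene. All 12 probes of 4 cardiomyocyte genes were detected in both hearts, with levels of Tnni3, the inhibitory subunit of cardiac troponin, of 14.84 in control and 14.90 in HF. These were 4 of 8 genes listed, and all probes but those of Tnni3, Myh6 and Actc1 were of the gene Tnnt2. Counts of these probes thus largely repeat the same gene. The probe of Myh6, the alpha heavy chain of cardiac myosin, ran against the tissue labels, with 10.88 and 10.68 in the hearts and 14.36 to 14.71 on the 4 blood and plasma arrays. All 4 erythroid probes were detected in whole blood of both conditions and also in both hearts.

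The heart changes of the members were moderate. Both hearts detected 1889 members, of which 219 (11.6%) had a level at least 2-fold above the control in HF and 291 (15.4%) one at least 2-fold below it. Among all probes detected on both arrays, 13.9% were higher and 12.9% lower, and among the filtered probes 11% were higher and 14.7% lower. The members' shares were thus near those of the filtered probes. The median change was -0.11 for the members and -0.08 for the filtered probes. Scaled to the 75th percentile of each array instead, 328 were higher and 288 lower, so that 53.2% of the changed members were higher in place of 42.9%. The same scaling moved the median change of all probes from 0.02 to 0.20, and that of the members to 0.11, so the sign of the median depended on the scaling. With a normexp background correction 96 members were higher and 149 lower. The intergenic rows with a probe name ending with _P1 had 5.36% higher and 28.0% lower in HF heart, with a median change of -0.57.

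The most strongly upregulated member in heart was ASMM9PARTA046969, an LncRNA of 677 bases. Its level was 5.54 in control heart and 10.99 in HF heart, a 43.7-fold difference with an error of 0.22 on the log2 scale. In blood it was detected only in HF, at 6.53 in whole blood and 6.02 in plasma, while both control arrays were not well above background. ASMM9PARTA003987 (2181 bases) had 4.02 in control heart and 8.62 in HF heart, a 24.3-fold difference, and went from 7.13 to 5.86 in whole blood and from 7.0 in control plasma to not well above background in HF plasma. The third, ASMM9PARTA050126 (274 bases), had 4.72 and 9.08 in the hearts, 20.5-fold apart. With normexp the log2 changes of the 3 were 3.98, 2.38 and 2.49, against 5.45, 4.60 and 4.36 here, and with scaling to the 75th percentile 6.0, 5.20 and 4.96, so the folds depended on the processing. All 3 were higher in HF heart in each case, and only the first was also detected at a higher level in both HF blood samples.

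Among the lowered members in heart, ASMM9PARTA046473 (1859 bases) had a level of 10.92 in control and 6.75 in HF, an 18.1-fold difference. Neither control blood sample had it well above background, and it was detected at 5.73 in whole blood and 5.70 in plasma of HF mice. ASMM9PARTA000497 (1853 bases) had the same order of arrays, with 10.15 in control heart, 6.92 in HF heart and, on the HF arrays of blood alone, 6.39 in whole blood and 6.35 in plasma. The third, ASMM9PARTA005439 (842 bases), went from 10.82 to 8.15 in heart and from 6.33 to 8.12 in whole blood, and from 6.0 in control plasma to not well above background in HF plasma. With normexp the log2 changes of the 3 were -3.51, -2.38 and -2.40, against -4.18, -3.23 and -2.67 here. At a 4-fold limit the balance in heart was turned, with 45 members higher and 28 lower. The filtered probes turned the same way, with 381 higher and 183 lower of 15676 detected on both arrays.

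More members lost than gained detection in HF heart: 702 (26.7%) were detected in the control alone and 42 (1.60%) in HF alone. The filtered probes had near shares, 23.8% and 1.38%. The lowest level that was called detected was itself 3.56 in control heart and 4.72 in HF heart, and with a weaker flag 2528 members were detected on both. For members detected in 1 heart alone only a bound can be given, namely the level on the detected array over the higher of the lowest detected level and the probe's own level on the other array. It was computed for the members only, so no share of other probes stands beside it. Because the limit was lower in control heart, this bound passes 2-fold more easily for members detected in HF heart alone, and their count is not set against that of the others. At least 2-fold lower were 41 of the 699 that were not well above background in HF heart (the other 3 were outlier spots), and over these 699 the level in control heart minus the limit in HF heart had a median of -0.19 on the log2 scale, so that for most of them no fold can be given. The largest bound in HF belonged to ASMM9PARTA007416 (3318 bases), which was not well above background in control heart (2.68) and had a level of 9.97 in HF heart, at least 84.8-fold higher. The largest bound in the control belonged to ASMM9PARTA004807 (900 bases), with 6.66 in control heart and 4.22, not well above background, in HF heart, at least 3.85-fold lower in HF.

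**Figure D1:**
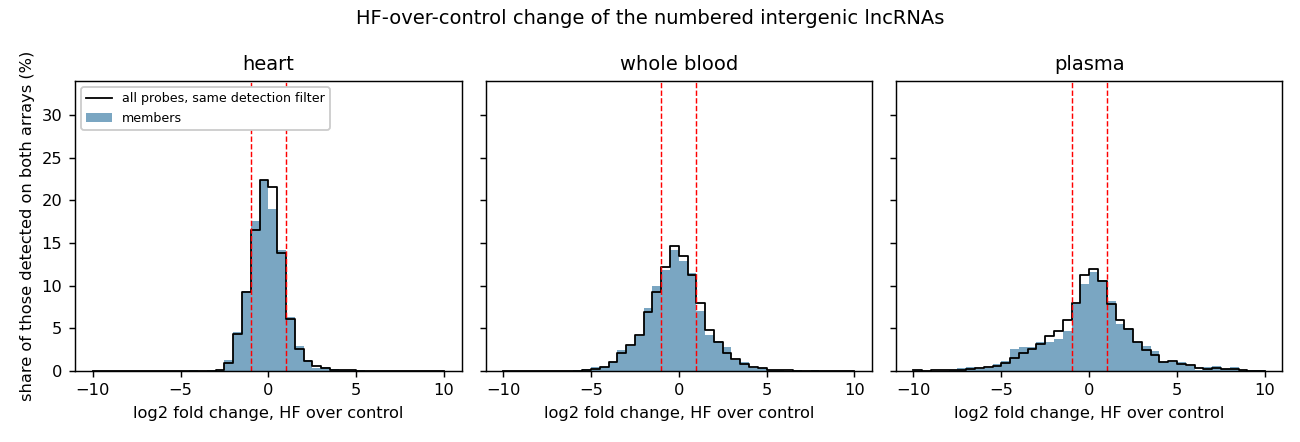
Distribution of the log2 fold change of HF over control in heart, whole blood and plasma, for members detected on both arrays of a tissue (bars) and for all probes that passed the same detection filter (black line), as a share in percent per bin of 0.5. The dashed lines mark a 2-fold difference. The members follow the filtered probes in each tissue, the spread widens from heart to plasma, and in plasma the bars rise above the line near a change of -4.

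In whole blood the changes were larger and leaned downward. Of 1444 members detected on both arrays, HF had a level at least 2-fold above the control for 299 (20.7%) and below it for 419 (29.0%), with a median change of -0.17. Of all probes, 21.4% were higher and 26.8% lower, and of the filtered probes 21.3% and 27.2%. With scaling to the 75th percentile, 225 members were higher and 507 lower, and the part of the changed members that was higher went from 41.6% to 30.7%. That scaling moved the median change of all probes from -0.13 to -0.35.

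The upregulated member with the largest change was ASMM9PARTA045404 (4136 bases), with 7.02 in whole blood of the control and 14.61 in that of HF, a 193-fold difference. In plasma it went from 7.05 to 12.74, while the hearts had 8.44 and 8.12. It was thus higher in both HF blood samples and differed by less than 2-fold in heart. ASMM9PARTA002230 (3876 bases) had 5.93 and 12.52 in whole blood, a 96.5-fold difference, but 6.53 and 6.07 in plasma and 5.84 and 5.85 in heart. ASMM9PARTA008654 (783 bases) had 6.36 and 12.04 in whole blood, 51.3-fold apart, and ran the other way in plasma, from 8.55 to 6.22.

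The downregulated members of whole blood with the largest changes were ASMM9PARTA046112, ASMM9PARTA046110 and ASMM9PARTA009040. ASMM9PARTA046112 (1547 bases) went from 12.02 to 6.34 in whole blood and from 12.08 to not well above background in plasma, at least 104-fold lower there. ASMM9PARTA046110 (2419 bases) went from 11.56 to 6.18 in whole blood, a 41.6-fold difference, yet had 11.45 in control plasma and 12.02 in HF plasma. These probes carry nearly adjacent numbers, and in HF plasma one was lost and the other kept. ASMM9PARTA009040 (2544 bases) had 10.54 and 5.31 in whole blood, a 37.6-fold difference, and 10.53 and 8.42 in plasma. In all 3 the hearts differed by less than 2-fold. In the 3 other normalizations the whole blood changes of the named members moved by -1.93 to 1.62 on the log2 scale, with no change of at least 2-fold turning sign.

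In whole blood 541 members (20.5%) were detected in HF alone and 225 (8.55%) in the control alone, near the 20.7% and 9.44% of the filtered probes. The lowest detected level was 5.78 in the control and 5.19 in HF. By the bound, 151 of 465 were at least 2-fold higher in HF and 155 of 224 at least 2-fold lower, the rest of the 541 and 225 being outlier spots on the other array. These counts depend on the unequal limits of the arrays and have no share of other probes beside them. ASMM9PARTA002662 (3404 bases) had the largest bound in HF, with 4.22, not well above background, in the control and 11.36 in HF, at least 48.0-fold higher. ASMM9PARTA051301 (681 bases) had the largest in the control, with 9.90 in the control and 4.77, not well above background, in HF, at least 26.1-fold lower.

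Markers of cardiomyocytes and of neutrophils moved with this comparison. Of the 12 cardiomyocyte probes, most of them of Tnnt2, 2 were detected in control whole blood and all 12 in HF whole blood. Tnni3 had a level of 2.65, the lowest of the array, in whole blood of the control and 12.31 in that of HF, and Actc1, the cardiac actin, 5.64 and 12.99. The summed level of the cardiomyocyte list was 14.50 in control and 15.59 in HF whole blood, and in both it was carried largely by the Myh6 probe, with 14.47 and 14.71. The summed level of 4 neutrophil probes went from 9.87 to 14.65, with Ltf, which encodes lactoferrin, from 4.50 to 12.79. The neutrophil sum was higher in HF heart too, from 8.33 to 11.56, with Ltf from 4.28 to 9.97. Cd3e, a marker of T cells, went from 9.30 to 9.98. For the whole blood change, all members were split into 4 groups by the excess of their heart level over their blood level. In the top group 32.0% of 259 detected on both arrays rose and 10.8% fell by 2-fold or more, with a median of 0.45. In the bottom group 17.9% of 552 rose and 43.3% fell, with a median of -0.70, and the groups between had -0.16 and -0.20. The filtered probes had 31.4% and 9.1% at the top, and 18.1% and 41.1% at the bottom. The part of the cell types named above in the members' changes was not tested. In a mixture fewer cells of a type and less RNA per cell cannot be told apart.

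The plasma changes had the widest spread. Both plasma arrays detected 1461 members, of which 483 (33.1%) had an HF level at least 2-fold above the control and 389 (26.6%) one at least 2-fold below it. The difference was at least 4-fold for 282 and 266 of these. All probes had 32.1% higher and 25.6% lower, and the filtered probes 31.3% and 26.9%. The median change was 0.24 for the members and 0.16 for the filtered probes. Over the 935 members detected on all 6 arrays the median was -0.06 and 276 were higher and 320 lower, so the lean to higher levels did not extend to them. Detection in control plasma alone was seen for 676 members (25.7%) and in HF plasma alone for 311 (11.8%), near the 27.0% and 11% of the filtered probes, with lowest detected levels of 4.64 and 5.37. By the bound, 230 of 269 were at least 2-fold higher in HF and 299 of 640 at least 2-fold lower. The limit was lower in control plasma, so this bound passes 2-fold more easily for members detected in HF plasma alone. These counts are therefore not set against each other, and no share of other probes stands beside them.

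The members with the largest plasma changes were very large. ASMM9PARTA007694 (1889 bases) had a level of 7.03 in control plasma and 16.83 in HF plasma, an 889-fold difference. Its level was 6.64 and 6.50 in whole blood, 4.13 in control heart and not well above background in HF heart, so HF plasma was the only array with a high level. ASMM9PARTA006682 (660 bases) had 6.60 and 16.17 in plasma and ASMM9PARTA010103 (715 bases) 5.25 and 14.33. The other arrays of ASMM9PARTA006682 lay between 3.98 and 6.93, and those of ASMM9PARTA010103 between 4.73 and 6.05, some of them not well above background. ASMM9PARTA006833 (1904 bases) was detected in HF plasma, at 13.47, and in control heart, at 3.88, and was not well above background elsewhere, which made it at least 458-fold higher in HF plasma.

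In the other direction, ASMM9PARTA000097 (760 bases) had a level of 17.02 in control plasma and 7.45 in HF plasma, a 762-fold difference. It was high on every other array, with 12.34 and 12.96 in heart and 16.93 and 16.24 in whole blood. ASMM9PARTA047723 (3224 bases) had the same pattern, with 15.29 and 7.47 in plasma, a 225-fold difference, 15.07 and 14.42 in whole blood and 12.64 and 12.91 in heart. ASMM9PARTA045721 (564 bases) had 13.79 and 13.34 in whole blood and 14.15 in control plasma, and was not well above background in HF plasma, at least 438-fold lower. The HF plasma array thus departed from whole blood of the same condition for these members. Scaled to the 75th percentile, the whole blood changes of the 3 were -2.61, -2.42 and -1.86, so HF whole blood was lower as well. With that scaling ASMM9PARTA000097 and ASMM9PARTA047723 had -10.89 and -8.72 in plasma. The plasma changes of the named members moved by -1.53 to 1.07 on the log2 scale in the 3 other normalizations.

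Blood cell markers also departed in HF plasma. Hbb-b1, a beta globin, had levels of 17.64 and 17.43 in whole blood and of 17.58 in control plasma, against 7.70 in HF plasma. The summed level of the 4 erythroid probes was 18.63 in control and 13.52 in HF plasma, that of 2 platelet probes 13.28 and 7.67, and that of 4 neutrophil probes 10.20 and 13.90. Of the erythroid probes, 2 were detected in HF plasma against 4 in control plasma. Of the 12 cardiomyocyte probes, most of them of Tnnt2, 6 were detected in control plasma and 4 in HF plasma. Their summed level was 14.39 and 14.42, carried by the Myh6 probe with 14.36 and 14.38, and the other 11 lay between 2.52 and 8.48. Of 20 negative control probes, 1 passed the detection rule in control plasma, 2 passed it in HF plasma and 0 on each other array. The part of blood cell RNA in the members' changes was not tested.

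The 3 members with the highest mean level over the 6 arrays were all at least 2-fold lower in HF plasma and changed less in the other tissues. ASMM9PARTA046330 (842 bases) had 17.43 and 17.30 in heart, 16.70 and 17.53 in whole blood, and 16.93 and 12.0 in plasma. ASMM9PARTA051612 (1612 bases) had levels between 16.69 and 17.17 on the first 5 arrays and 12.40 in HF plasma, and ASMM9PARTA010308 (462 bases) between 16.05 and 17.13 and 12.54. All 3 were still detected in HF plasma, with changes of -4.92, -4.57 and -4.15 on the log2 scale. Scaled to the 75th percentile, their whole blood changes were -0.62, -1.21 and -1.01, in place of 0.83, 0.37 and 0.51. Whole blood was thus also lower in HF with that scaling.

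**Figure D2:**
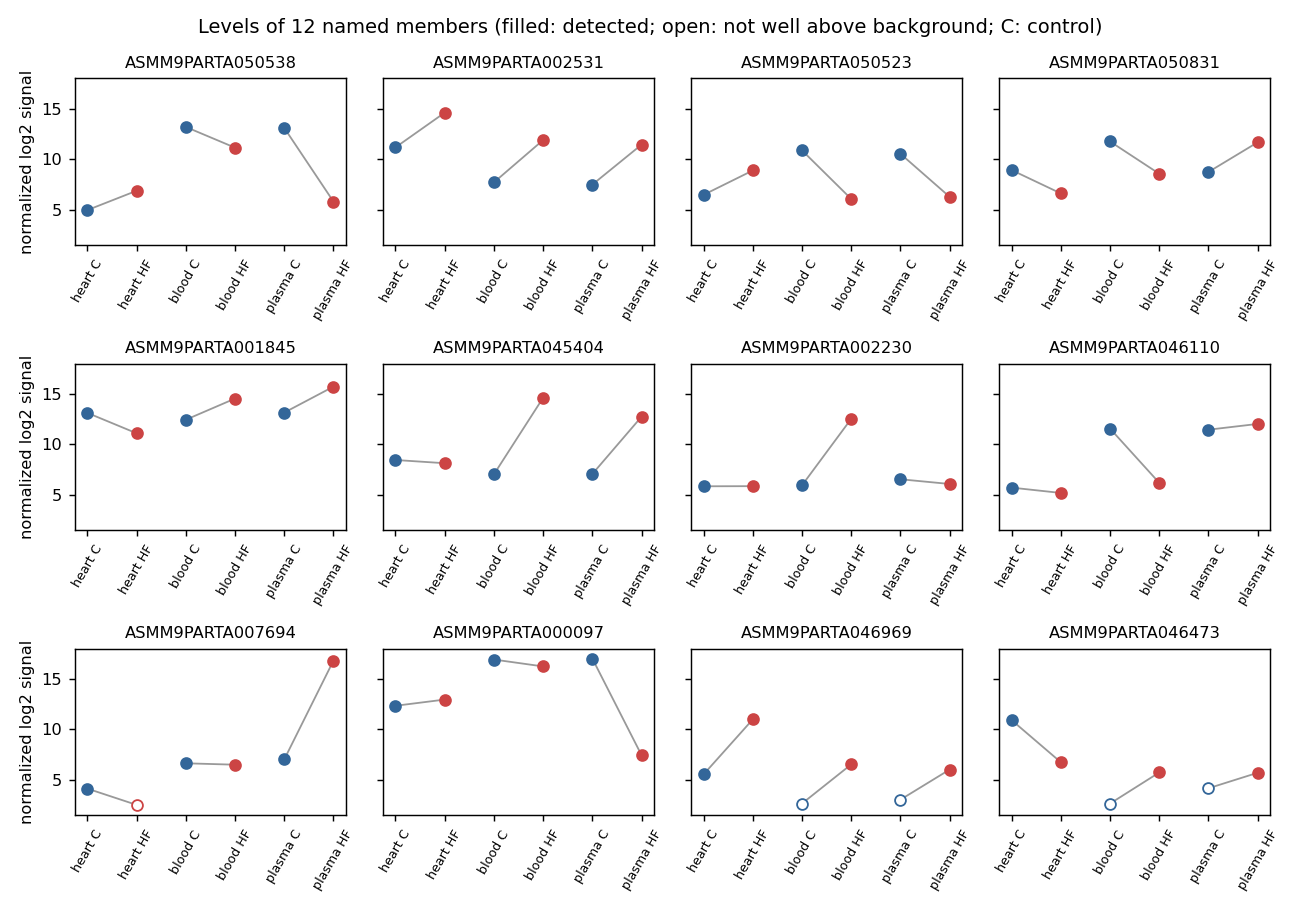
Normalized log2 signal of 12 members on the 6 arrays, control in blue and HF in red, with a line joining the arrays of a tissue; open points were not well above background. Each point is 1 array, with no replicate. ASMM9PARTA002531 is higher in HF in all 3 tissues, ASMM9PARTA007694 is high only in HF plasma and ASMM9PARTA000097 is low only there.

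The lengths of the members ranged from 201 to 16061 bases, with a median of 1292. The intergenic LncRNAs named after a transcript had a median of 634 bases and ran from 60 to 115024. Shorter members had higher levels on 5 of the 6 arrays, with a Spearman's rho of length and level of -0.22 and -0.23 in the hearts of control and HF mice, -0.16 and -0.15 in their whole blood, and -0.16 in control plasma (n = 2633 for each). In HF plasma it was -0.04. The intergenic rows with a probe name ending with _P1 (n = 1561) did not share this drop, with -0.12 in HF plasma and -0.08 to -0.11 on the other arrays. These values describe how brightness went with length across probes that share an array and differ in base composition. The longest member, ASMM9PARTA051745, had levels of 5.82 and 5.32 in heart and of 5.0 and 8.15 in plasma, and in whole blood it was detected in HF alone, at 6.02. The shortest, ASMM9PARTA051818, had 13.13 and 15.06 in heart, 11.35 and 12.68 in whole blood and 11.98 and 10.23 in plasma.

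The plasma change went with length. Split into 4 groups by length, the shortest ran from 201 to 677 bases, and 44.6% of its 388 members detected on both plasma arrays were at least 2-fold lower in HF and 21.9% higher, with a median change of -0.58. In the other groups 23.4%, 18.8% and 18.3% were lower and 36.5%, 40.0% and 35.0% higher, with medians of 0.36, 0.56 and 0.31. The steps were smaller in heart, where the groups from short to long had medians of 0.03, -0.18, -0.12 and -0.22, or in whole blood, with -0.08, -0.24, -0.16 and -0.21. The rho of length and change was 0.18 in plasma (n = 1461), -0.09 in heart (n = 1889) and -0.06 in whole blood (n = 1444).

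Most of the step came from a single run of probe numbers. The maker's numbers of the members fell into 3 runs that are set apart by gaps of more than 300 numbers, a split made after the values had been seen: 2 to 9229 (1435 members), 9635 to 10938 (454) and 45108 to 51830 (744). The middle run was short, with a median of 562.5 bases against 1720 and 1082, and bright in heart, with a median level in control heart of 9.62 against 5.98 and 6.06. What source the maker drew the runs from is not given in the sources used here. In plasma, 60.2% of the 264 members of the middle run detected on both arrays were at least 2-fold lower in HF and 15.2% higher, with a median change of -2.06. The first run had 16.6% of 752 lower and 39.6% higher, with a median of 0.51, and the third 23.6% of 445 lower and 32.6% higher, with a median of 0.35. In heart the middle run had a median change of 0.15 and in whole blood of 0.12, against medians from -0.27 to -0.19 for the other runs.

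Within the middle run, the shortest of the 4 length groups had 72.2% of 169 members lower in HF plasma, with a median change of -2.73. The same group had 18.3% of 82 lower in the first run and 26.3% of 137 in the third, with medians of 0.44 and 0.14. Outside the middle run the shortest members thus had medians above 0, although in the third run theirs was the lowest of the 4 length groups, the others having 0.42, 0.56 and 0.29. Without the middle run, 443 members were at least 2-fold higher and 230 lower in HF plasma of 1197 detected on both arrays, with a median change of 0.44. The rho of length and level without it was -0.06 and -0.07 in the hearts of control and HF mice and -0.07 and -0.03 in their whole blood. In plasma it was -0.06 in the control and -0.01 in HF. All probes numbered within the middle run, whether or not in the list, gave 52.6% lower and 19.6% higher of 409, and those that were no members 38.6% lower and 27.6% higher of 145.

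Brightness in heart went with the plasma change too. Of the members with a mean heart level of at least 8.60, the upper quartile, 54.2% of 400 were at least 2-fold lower in HF plasma and 18.8% higher, with a median change of -1.55. Below that level 16.2% of 1061 were lower and 38.5% higher, with a median of 0.49. The filtered probes had 48.3% lower above the same level and 18.2% below it. Bright members outside the middle run had 32.7% of 214 lower and 31.8% higher, with a median of 0.19. Members that were both in the shortest length group and at or above the upper quartile of heart level had 75.6% of 193 lower in HF plasma and a median change of -2.84, whereas the medians of the other 15 combinations lay between -0.15 and 0.67.

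**Figure D3:**
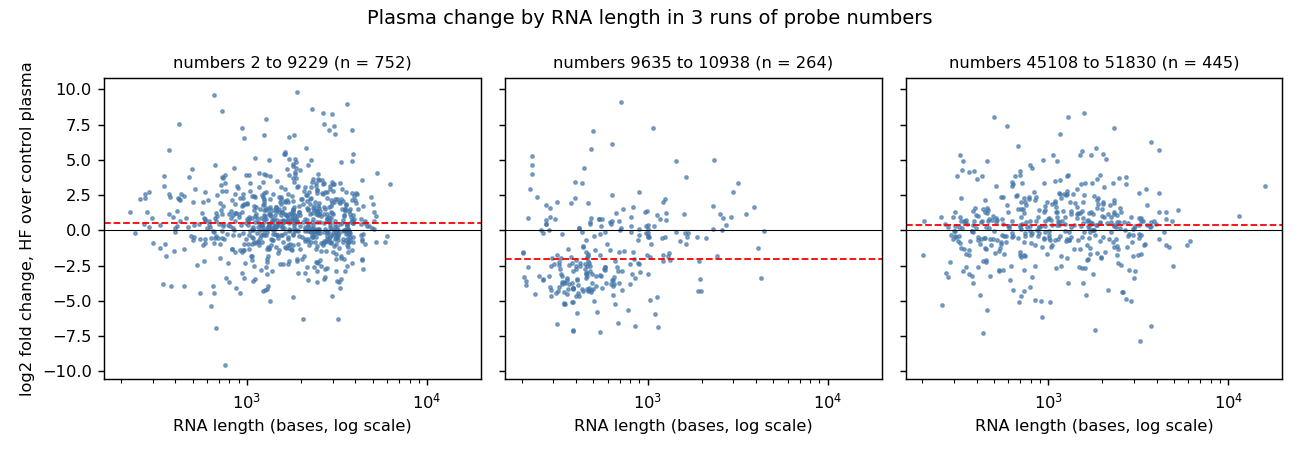
Change in plasma (log2 fold change of HF over control) against RNA length in bases on a log axis, for the members detected on both plasma arrays, in 3 runs of probe numbers. The black line marks no change and the dashed line the median of the run, 0.51, -2.06 and 0.35 from left to right; the middle run holds a dense group of short members near -2.5 to -5.

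In control whole blood and control plasma, the bright members of the middle run were hit most by the flag for outlier spots. In control whole blood 52 of its members were flagged as outlier spots and in control plasma 32, with median levels of 13.25 and 14.25, and none in either heart or in HF whole blood. In HF plasma the flag took 2 of 454 members of the middle run, 26 of 1435 of the first and 8 of 744 of the third. All of these spots were flagged well above background as well, so the rule for detection left them out although they were bright. With the outlier flag ignored, 63.4% of 295 members of the run were at least 2-fold lower in HF plasma and 13.9% higher, with a median of -2.37.

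Some members of the middle run had nearly equal levels on all 6 arrays. Of the 436645 possible pairs among the 935 members detected on all arrays, 20 pairs, formed by 31 members, lay within 0.3 on the log2 scale of each other on every array. Both members were of the middle run in 8 of these pairs, of the first run in 2 and of the third run in 5. The other 5 pairs joined members of different runs, and only 4 of the 20 pairs had members of equal length. Such pairs were not counted over other probes. Among the 31 members the length most often found was 387 bases, with 5 of the 7 members of that length. ASMM9PARTA009832 and ASMM9PARTA009847 had levels of 16.50 and 16.46 in control heart, 15.80 and 15.97 in HF heart, 16.12 and 16.14 in control plasma, and 9.0 and 9.05 in HF plasma. ASMM9PARTA009792, ASMM9PARTA009852 and ASMM9PARTA010012, of 387 bases as well, had 14.91, 14.97 and 14.77 in control heart and 10.95, 10.87 and 10.71 in HF plasma. Probes of near-identical transcripts would read the same RNA, and without their sequences such members cannot be counted as independent.

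Levels in heart and blood differed widely for some members. In both hearts 217 members (8.24%) had a level at least 4-fold above that on every blood and plasma array, and 145 (5.51%) were at least 4-fold higher on all 4 blood and plasma arrays than on either heart array. The filtered probes had 10.5% and 4.36%. The members named for this were chosen after their values had been seen. ASMM9PARTA003139 (793 bases) had 11.20 and 11.31 in heart and 6.88 in HF whole blood, and was not well above background in the other blood samples, so that heart was at least 19.9-fold above each of them by the measured levels. ASMM9PARTA009723 (426 bases) had 11.04 and 10.70 in heart and 6.29 in HF whole blood and was not well above background elsewhere. ASMM9PARTA006660 (1492 bases) had 10.02 and 10.01 in heart and 5.46 in HF whole blood, and was likewise not well above background elsewhere. Every member had to be flagged on at least 1 of the 4 blood and plasma arrays, but the filter did not set which one. For these members it was HF whole blood. ASMM9PARTA003332 (1393 bases) had 5.73 and 5.09 in heart, 11.04 and 10.92 in whole blood and 10.86 and 10.61 in plasma, and ASMM9PARTA006072 (3153 bases) had 10.05, 10.39, 10.10 and 9.81 on the 4 blood and plasma arrays and 3.99 in control heart. Both changed by less than 2-fold in HF in whole blood and in plasma. ASMM9PARTA006041 (1223 bases), with 10.42 and 9.82 in heart and 15.52 and 15.05 in whole blood, went from 15.10 to 17.43 in plasma, a 5.03-fold difference.

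Changes in all 3 tissues were seen for few members. Of the 935 members detected on all 6 arrays, 72 (7.70%) differed at least 2-fold in heart, whole blood and plasma, close to the 7.27% of all probes detected on all arrays. With normexp the count was 32. A further 356 differed in 2 tissues, 411 in 1 and 96 in none. Of the 72, 25 were lower in heart and whole blood and higher in plasma, 14 lower in heart and higher in both blood samples, and 14 lower in all 3. Only 4 were higher in all 3, and 7 were higher in heart and whole blood and lower in plasma. The direction most often found thus set plasma against heart: 89 members were lower in HF heart and higher in HF plasma and 29 the reverse, against 22 lower in both and 7 higher in both. The rho of the changes across the 935 was -0.34 for heart and plasma, 0.31 for heart and whole blood and 0.05 for whole blood and plasma. Over all 7527 probes detected on every array it was -0.33, 0.27 and 0.07, so the members were like the array as a whole.

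Among the 5 members with the largest smallest change over the 3 tissues, ASMM9PARTA002531 (1858 bases) was higher in HF throughout. Its levels were 11.17 and 14.61 in heart, 7.70 and 11.89 in whole blood and 7.48 and 11.44 in plasma, differences of 10.9-fold, 18.3-fold and 15.6-fold. Each HF level was thus above each control level of the same tissue by more than 3 on the log2 scale, against an error of 0.20 to 0.22. ASMM9PARTA050523 (734 bases) was higher in HF heart, with 6.46 and 8.88, and lower in HF whole blood, with 10.87 and 6.06, and plasma, with 10.54 and 6.27. ASMM9PARTA050538 (434 bases) ran the same way, from 4.95 to 6.87 in heart, 13.19 to 11.14 in whole blood and 13.09 to 5.79 in plasma. For both, heart went against blood, although with normexp the heart change of ASMM9PARTA050538 was 0.86, under 2-fold. ASMM9PARTA050831 (3503 bases) was lower in HF heart, with 8.92 and 6.60, and whole blood, with 11.75 and 8.55, and higher in HF plasma, with 8.73 and 11.67. ASMM9PARTA001845 (859 bases) had 13.11 and 11.09 in heart, and higher HF levels in whole blood, with 12.43 and 14.53, and in plasma, with 13.14 and 15.72. Scaled to the 75th percentile its whole blood change was 0.70, under 2-fold.

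**Figure D4:**
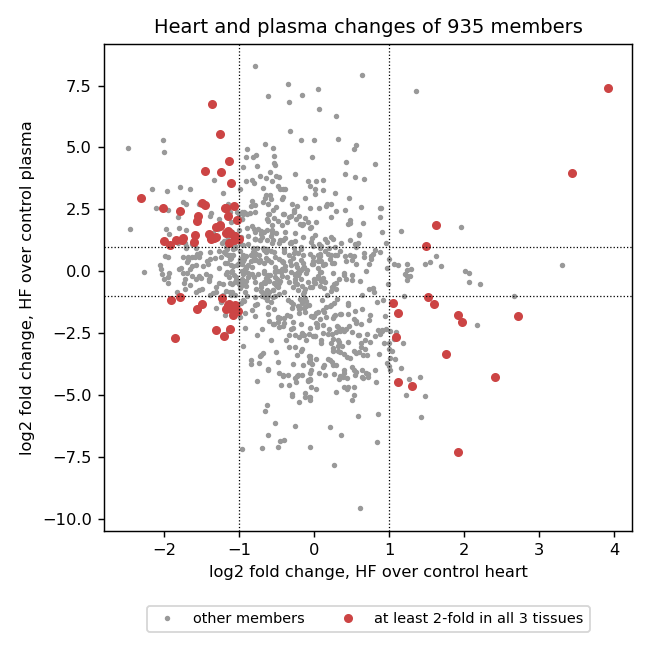
Log2 fold change of HF over control in plasma against that in heart for the 935 members detected on all 6 arrays; red points mark the 72 members that differed at least 2-fold in all 3 tissues, and dotted lines mark 2-fold differences. More points lie at the upper left, 89 past both lines, and the lower right, 29, than at the lower left, 22, and the upper right, 7.

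Near the 2-fold limit the calls were less certain. Within 1 error of the limit lay 437 of the members detected on both heart arrays (23.1%), 298 in whole blood (20.6%) and 214 in plasma (14.6%). Past it by more than 2 errors lay 223 in heart, 486 in whole blood and 685 in plasma. Heart thus had the fewest changes that were well clear of the reading error, and plasma the most.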

How the data were processed

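The 6 arrays (Mouse LncRNA v2.0, single colour) were scanned by the authors with Agilent Feature Extraction 11.0.1.1, and the deposited intensity of each spot is background-subtracted and not normalized between arrays. The 59729 probes (61194 spots) apart from control spots were taken as log2, averaged over spots and quantile normalized over the 6 arrays with limma 3.58.1. Columns of samples outside the 6 numbered 0. The deposited table of all arrays was not used. Lengths and the class intergenic came from the study's list, held in part; its levels were not used. Counts at 2-fold needed detection on both arrays of a tissue. Named members were, by rule, the 3 largest rises and falls and the largest bounds in each tissue, the 5 changed most in 3 tissues, the 3 brightest, the longest and the shortest, and those said to be chosen later. The members and lists were chosen with earlier results of these data known. Alternatives were scaling to the 75th percentile, quantile normalization of each pair, normexp with offset 50, other detection rules, folds of 1.5 and 4, and Pearson's r. The counting of 2-fold changes was tested on a simulated pair of arrays with known changes and the same detection on both. That did not cover the flags, the unequal detection limits or the bounds. Depth has no meaning for arrays; 1 array per condition limits the precision. Python 3.11.15, pandas 2.3.3, scipy 1.17.1 and R 4.3.3 were used. One marker gene is not reported here.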

Additional observations from a re-analysis of the deposited data

Results flagged for a closer look

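Several named members moved in opposite directions in 2 tissues, by at least 2-fold in each and with detection on both arrays, and the difference between tissues was not tested because each tissue had 1 array per condition. ASMM9PARTA003987 had a log2 change of 4.60 in heart and -1.27 in whole blood, and ASMM9PARTA005439 of -2.67 in heart and 1.80 in whole blood. ASMM9PARTA008654 had 5.68 in whole blood and -2.33 in plasma. ASMM9PARTA050538 had 1.92 in heart, -2.05 in whole blood and -7.30 in plasma, and ASMM9PARTA050523 had 2.41, -4.82 and -4.27 in the same order. ASMM9PARTA050831 had -2.32 in heart, -3.20 in whole blood and 2.94 in plasma. ASMM9PARTA001845 had -2.02 in heart, 2.10 in whole blood and 2.57 in plasma. The shortest member, ASMM9PARTA051818, had 1.92 in heart, 1.33 in whole blood and -1.76 in plasma. Some of these changes fell under 2-fold with other processing, with the same sign: with normexp that of ASMM9PARTA003987 in whole blood was -0.57 and that of ASMM9PARTA050538 in heart 0.86, and with scaling to the 75th percentile those in whole blood of ASMM9PARTA001845 and ASMM9PARTA051818 were 0.70 and 0.34.

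The members numbered 9635 to 10938 had a median log2 change of 0.15 in heart and of -2.06 in plasma. Of the members detected on all 6 arrays, 89 were at least 2-fold lower in HF heart and higher in HF plasma, and 29 were higher in HF heart and lower in HF plasma. These opposite directions were not tested either.

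Of 20 probes named as negative controls, 1 passed the detection rule in control plasma and 2 did so in HF plasma. They are no members, but they were among the 59729 probes that were normalized and counted as all probes.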

How the results depend on the processing

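No paired analysis was possible because each condition had 1 array. Medians of the members turned sign in heart with scaling to the 75th percentile (0.11), in whole blood with no detection filter (0.020), and in plasma with a weaker flag (-0.029), no filter (-0.23) or detection on all 6 arrays (-0.062). The rho of length and level in HF plasma was 0.030 on members detected on all 6 arrays, where the hearts had -0.33 and -0.35; without the middle run of numbers, chosen after seeing the data, the hearts had -0.063 and -0.070 and HF whole blood -0.025. The median in whole blood was -0.43 with scaling and in heart -0.36 on members of all 6 arrays. Changed members in heart, whole blood and plasma numbered 798, 1512 and 1797 with no filter and 73, 308 and 548 at 4-fold; heart had 245 with normexp, 262 on all 6 arrays and 978 at 1.5-fold, and the weaker flag gave 1187 in whole blood and 1407 in plasma. Changes in all 3 tissues numbered 32 with normexp and 276 with no filter. The median of the middle run in plasma was -1.58 with normexp, -2.37 with outlier spots kept and -2.32 on all 6 arrays, alternatives added after seeing the data. Other settings kept direction and stayed within 1.5 times the count (or 0.1 of rho, or 1 error of a median), and no named change of at least 2-fold turned sign in the 3 other normalizations. Some named changes under 2-fold did turn sign, among them those of the 3 brightest members in whole blood with scaling. Named changes moved by -2.22 to 1.62 (log2) in the other normalizations, both ends with normexp. The causes were not tested.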
